A study of Mus musculus with 12 samples.

Results

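The genes of the stereocilia tip and row identity complex were examined in RNA-seq data from the 2 types of cochlear hair cell, the inner hair cells (IHCs) and the outer hair cells (OHCs). The members were the 9 genes Myo15 (named Myo15a in later annotations), Whrn, Eps8, Eps8l2, Gpsm2, Gnai3, Baiap2l2, Myo3a and Myo3b. The list follows the role of their proteins and its rule uses no measured value, though it was drawn up with earlier results of these data known, and its genes were matched by gene name to 9 of the 55416 genes in the count files. All 9 had enough counts to be tested, among 13269 genes tested.

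Each cell type was represented by 6 libraries, 12 in all, each made from a pool of cells sorted from the organ of Corti of mice at postnatal day 0 (P0). The labels give the genotype of both groups as WT. By the sorting protocol, IHCs were taken as the cells positive for the Atoh1-GFP reporter alone, and OHCs as those that also carried tdTomato from the R26-TdTomato allele, recombined by the Cre of Insm1-GFP-Cre, so the OHC pools rest on a Cre driven from the Insm1 locus. By the methods, 1 mating scheme was used for both cell types, with the tdTomato allele from the males and the Insm1 and Atoh1 alleles from the females, so IHCs can carry the same alleles as OHCs. The labels do not say whether the replicates came from separate litters, so the p-values measure the spread between these pools.

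Stereocilia are actin-filled protrusions that stand in rows of graded height on the hair cell, and their heights are set around and after birth at the filament tips. The motor MYO15 carries the scaffold whirlin (Whrn) and the actin regulator EPS8 to the tips, and GPSM2 with the G protein subunit GNAI3 joins them at the tallest row, giving that row its identity. EPS8L2 and BAIAP2L2 are known from the tips of the shorter rows, and the class III myosins MYO3A and MYO3B move along the filaments to the tips with espin-family actin bundlers as cargo. Where the proteins sit in the bundle was not measured here, and in sorted pools less RNA per cell and fewer cells with the RNA cannot be told apart.

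Sequencing gave 31490204 to 44017309 counts on genes in the IHC libraries and 29564827 to 39121988 in those of OHCs. Ribosomal RNA, with that of mitochondria included, took 21.5% to 56.9% of them in IHC libraries and 23.4% to 36.4% in OHC libraries. The highest share was that of IHC replicate 1, which kept 13565175 counts on other genes, the fewest of all libraries, and which was the lowest or highest IHC library for 8 of the 9 members. The summed level of the 4 IHC markers was 1834 to 4284 CPM (gene counts scaled to a fixed library total, on library sizes normalized by the TMM method) in IHC pools and 360 to 687 CPM in OHC pools, and that of the 4 OHC markers was 2.16 to 23.5 and 105 to 188 CPM. All 4 IHC markers and 3 of the 4 OHC markers (not Ikzf2) passed the test in the direction of their labels, and the 6 general hair cell markers summed to 3804 to 5000 CPM in all 12 libraries. Of the other marker lists, the 7 endothelium genes summed to 0.00 to 3.15 CPM in IHC pools and 19.1 to 226 CPM in OHC pools, with all 6 that could be tested higher in OHCs. The 7 supporting cell genes (236 to 687 against 139 to 258 CPM), the 5 genes of the greater epithelial ridge (712 to 1628 against 155 to 612 CPM), the 5 neuronal genes (814 to 1499 against 216 to 432 CPM) and the 7 mesenchyme genes (42.8 to 59.3 against 5.07 to 27.3 CPM) had higher median sums in IHC pools, and 2, 1, 3 and 0 of their genes passed the test as higher in IHCs. Glia genes (4) summed to at most 62.4 CPM, macrophage genes (5) to at most 19.6 CPM and erythroid genes (5) to at most 3.20 CPM in any library, with C1qa, C1qc, Cx3cr1, Foxd3, Hba-a2 and Hbb-bs at no more than 3 counts throughout, as was the neuronal gene Prph. The part of these other cells in the values below was not tested.

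Of the 9 members, Myo3a alone passed the test for a difference between the cell types (adjusted p under 0.05, edgeR quasi-likelihood test over all 13269 genes), against 6.26% of all genes tested, 2.44% higher in OHCs and 3.81% higher in IHCs. Myo3a was also the only member whose groups did not overlap, which 4.60% of all genes tested showed in either direction. At an unadjusted p under 0.05 there were 4 members, against 21.8% of all genes. The fitted log2 fold changes (OHC minus IHC) were positive for 5 members and negative for 4, with a median of 0.44 beside -0.04 for all genes tested, and the median of their absolute size was 0.59 in both. Between libraries of 1 cell type the members had a median coefficient of variation of 28.9% in IHCs and 28.3% in OHCs, beside 62.8% and 51.3% over all genes tested. Baiap2l2 in IHCs (75.1%) and Whrn (59.6%), Eps8 (60.1%) and Baiap2l2 (56.3%) in OHCs lay above the median gene. The genes tested were not matched to the members for level, so these spreads are not compared at like levels.

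**Figure D1:**
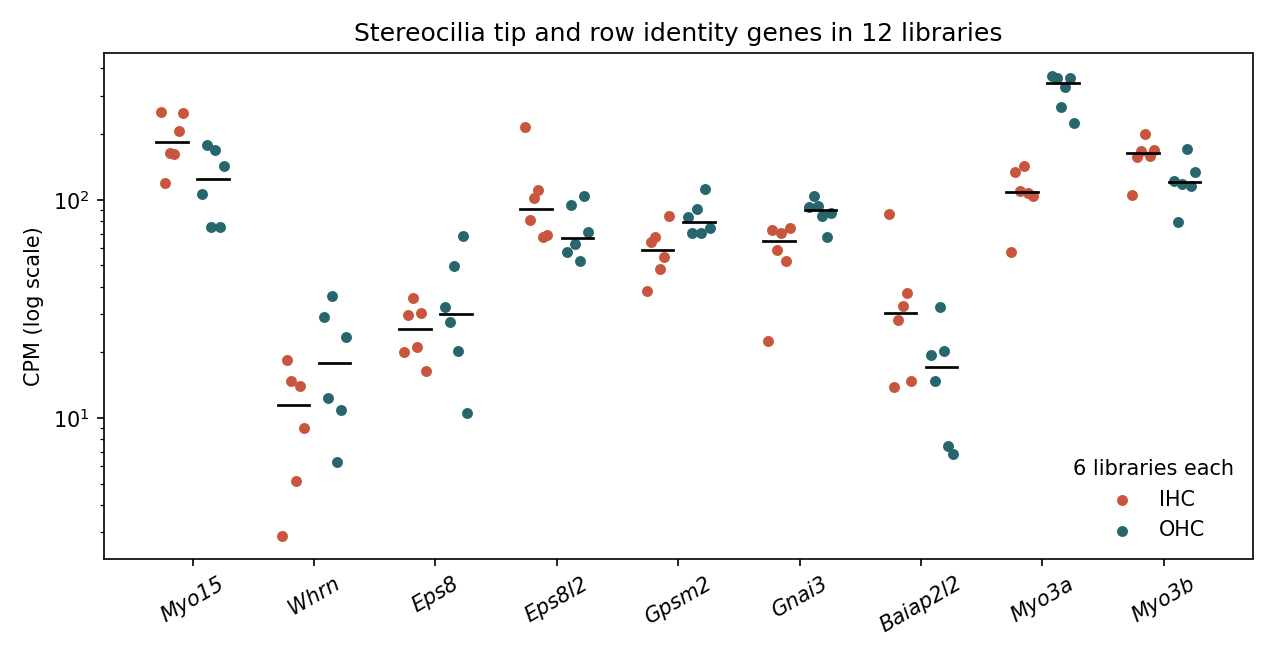
CPM (log scale) of the 9 members in the 6 IHC and 6 OHC libraries, with 1 point per library and a black line at the median of each group. For Myo3a every OHC point, from 225 CPM, lies above every IHC point, up to 143 CPM; the groups of the other 8 genes overlap.

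The class III myosins come first, since the difference lies there. Myo3a (ENSMUSG00000025716) covers bases 22232316 to 22508264 of the plus strand of chromosome 2 in GRCm39, and its paralog Myo3b (ENSMUSG00000042064) bases 69869470 to 70259542 of the same strand and chromosome. Both encode a motor with a kinase domain at its head, and since their levels part between the cell types, the 250 bases before the most upstream annotated start of each are shown, read from the GRCm39 genome, 5′ to 3′ on the gene's strand. Capitals mark GC boxes (GGGCGG on either strand), the letters bound by Sp/KLF factors.

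Myo3a, chr2:22232066-22232315: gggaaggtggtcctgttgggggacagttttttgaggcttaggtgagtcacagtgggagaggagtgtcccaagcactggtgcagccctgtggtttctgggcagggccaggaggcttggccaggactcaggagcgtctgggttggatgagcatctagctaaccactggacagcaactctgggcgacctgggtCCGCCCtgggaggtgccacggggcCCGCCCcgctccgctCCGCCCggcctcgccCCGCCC
Myo3b, chr2:69869220-69869469: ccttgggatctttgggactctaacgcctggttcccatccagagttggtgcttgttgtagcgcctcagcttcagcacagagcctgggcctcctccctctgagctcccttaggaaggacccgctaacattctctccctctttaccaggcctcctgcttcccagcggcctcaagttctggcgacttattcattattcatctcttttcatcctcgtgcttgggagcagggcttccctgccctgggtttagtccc

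The Myo3a window held 4 GC boxes, starting 60, 36, 21 and 6 bases before the gene, and the Myo3b window none, where 29.9% of 21770 such windows of protein-coding genes held at least 1. Of the other members, only Gpsm2 held any (2). The E-box CANNTG, the site of ATOH1 and other basic helix-loop-helix factors, was in neither myosin window, though 66.5% of all windows held it. It stood in those of Myo15 (2), Gnai3 (2), Gpsm2 (1) and Baiap2l2 (1) and not in those of Whrn, Eps8 and Eps8l2. These matches are letters in a window and say nothing of a factor's binding. Myo3b has a second annotated start within the gene, and windows before any further starts of either myosin gene were not examined. Myo3a has 5 annotated transcripts and Myo3b 3, and the counts do not tell which start of either gene was used.

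Myo3a was 57.6 CPM in the lowest, 109 in the median and 143 in the highest IHC library, and 225, 344 and 369 CPM in OHCs. All 6 OHC libraries lay above all 6 IHC libraries. The fitted log2 fold change was 1.54 (SE 0.23, 95% interval 1.07 to 2.02), which is 2.91-fold higher in OHCs, with an adjusted p of 0.000305 by edgeR's quasi-likelihood test. The lowest IHC value was that of replicate 1. Without that library the log2 fold change was 1.40, and over all alternatives run it stayed between 1.40 and 1.63. In the OHC library with the least endothelium RNA (replicate 2, 19.1 CPM) Myo3a was 360 CPM, and in the one with the most (replicate 3, 226 CPM) it was 267 CPM. The lowest OHC value of Myo3a, 225 CPM, was that of replicate 6, with 62.6 CPM of endothelium RNA. The part of RNA from other cells in the Myo3a values of either cell type was not tested.

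Myo3b was 105, 163 and 199 CPM in the lowest, median and highest IHC library and 78.8, 120 and 171 CPM in OHCs. The groups overlapped, with 1 OHC library below every IHC library and 1 IHC library above every OHC library. The log2 fold change was -0.37 (95% interval -0.83 to 0.09) with an adjusted p of 0.348 in edgeR, so a difference was not shown, and the interval leaves room for up to 1.78-fold higher levels in IHCs. Of the 100-base windows of its main transcript, 2.09% also occur in Gm17867, and reads from there could be lost or shared. The exons of Myo3b share 0.994% of their bases with Gm13631 on the same strand, whose counts came to 7.69% of those of Myo3b. They share 5.90% with Gm75093 on the opposite strand, which is not among the genes counted.

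Within a library, the ratio of the 2 myosins does not depend on how libraries are scaled. Counts of Myo3a were 0.548 to 0.848 times those of Myo3b in the 6 IHC libraries (median 0.664) and 1.67 to 4.57 times in the 6 OHC libraries (median 2.64). The ratio was below 1 in every IHC library and above 1 in every OHC library. The mean log2 ratio was -0.58 ± 0.21 (SD, n = 6) in IHCs and 1.38 ± 0.53 (SD, n = 6) in OHCs, a difference of 1.96 (two-sided exact permutation test, p = 0.00216, the smallest that 6 against 6 libraries can give; adjusted p = 0.00866 over the 4 ratios tested). Myo3a made up 35.4% to 45.9% of the class III myosin counts in IHCs and 62.6% to 82.1% in OHCs. Per kilobase of exon Myo3a was 0.486 to 0.752 of Myo3b in IHCs and 1.48 to 4.06 times Myo3b in OHCs. With the longest transcript as the length these became 0.680 to 1.05, with 1 IHC library above 1, and 2.08 to 5.68. The sum of both was 163 to 342 CPM in IHCs (269 ± 58.7, SD, n = 6) and 359 to 498 CPM in OHCs (442 ± 58.2, SD, n = 6), without overlap.

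Of the 3 genes listed as cargo or adaptors of class III myosins, Espn and Espnl were higher in IHCs and none was higher in OHCs, where 3.81% of all genes tested were higher in IHCs. Espn, which encodes the actin bundler espin, was 105, 175 and 286 CPM in the lowest, median and highest IHC library and 43.7, 57.3 and 71.0 CPM in OHCs. Every IHC library lay above every OHC library, and the log2 fold change was -1.65 (SE 0.28), or 3.14-fold higher in IHCs (adjusted p = 0.000907, edgeR). Espnl, an espin-like gene of the same family, was 405, 519 and 603 CPM among IHC libraries and 252, 295 and 386 CPM in OHCs, again without overlap, with a log2 fold change of -0.74 (SE 0.18; adjusted p = 0.0161, edgeR). Morn4, an adaptor that binds MYO3A, had a log2 fold change of -1.004 that did not pass (adjusted p = 0.268, edgeR), and 1 IHC library reached 416 CPM. Espn shares 8.71% of its exonic bases with other genes and Espnl none.

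**Figure D2:**
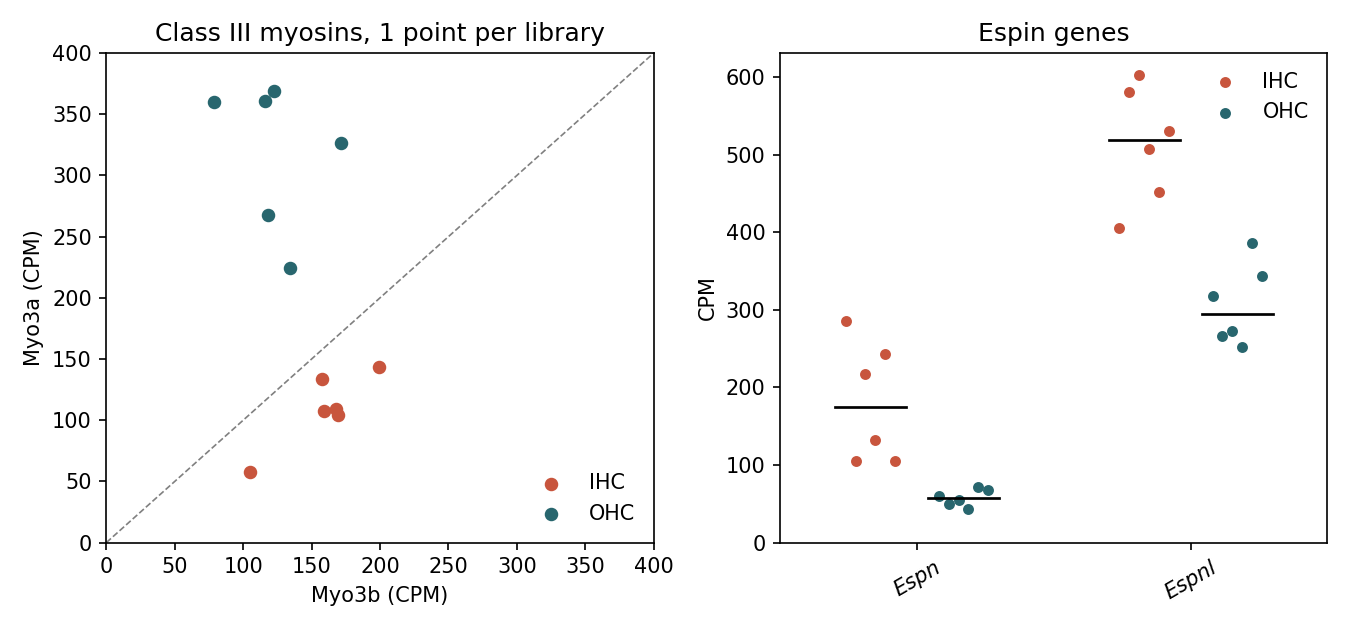
Left, Myo3a against Myo3b in CPM, 1 point per library, with the dashed line where both are equal: the 6 IHC libraries lie below the line and the 6 OHC libraries above it. Right, CPM of Espn and Espnl by library with group medians as black lines: for both genes the lowest IHC library (105 and 405 CPM) is above the highest OHC library (71.0 and 386 CPM).

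Myo15, Whrn and Eps8 build the tip complex common to the row tips and concentrated at the tallest row. Myo15 (ENSMUSG00000042678, chromosome 11, 60360165 to 60419195, plus strand) was 119, 184 and 252 CPM in the lowest, median and highest IHC library and 74.7, 125 and 177 CPM in OHCs. In OHCs 3 libraries lay below every IHC library and the other 3 within the IHC range. The log2 fold change was -0.63 (95% interval -1.18 to -0.08; adjusted p = 0.168, edgeR), which did not pass after adjustment.

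Whrn (ENSMUSG00000039137, chromosome 4, 63333143 to 63414333, minus strand) had the lowest level per length of the 9. It was 2.88, 11.5 and 18.4 CPM among IHC libraries and 6.31, 17.95 and 36.4 CPM in OHCs, from 44 to 1353 counts per library. The groups overlapped, and the log2 fold change of 0.89 had a 95% interval from -0.28 to 2.05 (adjusted p = 0.374, edgeR), which holds both no change and a 4.14-fold higher level in OHCs.

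Eps8 (ENSMUSG00000015766, chromosome 6, 137454242 to 137648519, minus strand), which caps and bundles actin at the tip, was 16.4, 25.4 and 35.6 CPM among IHC libraries and 10.5, 29.9 and 67.9 CPM in OHCs. The OHC libraries spread to both sides of the IHC range (coefficient of variation 60.1% against 28.9%), with a log2 fold change of 0.44 (95% interval -0.42 to 1.31; adjusted p = 0.575, edgeR). It was 0.13 without OHC replicate 5, the highest library. The ratio of Whrn counts to Myo15 counts, the scaffold against the motor that carries it, ranged from 0.0114 to 0.155 in IHCs and from 0.0375 to 0.487 in OHCs. The difference of the mean log2 ratios was 1.56 (two-sided exact permutation test, adjusted p = 0.143 over the 4 ratios) and fell to 1.15 without IHC replicate 1.

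Gpsm2 and Gnai3 encode the 2 proteins that mark the tallest row, and both were fitted higher in OHCs without passing the test. Gpsm2 (ENSMUSG00000027883, chromosome 3, 108583861 to 108629640, minus strand) was 38.1, 59.1 and 84.4 CPM in the lowest, median and highest IHC library and 70.2, 78.9 and 112 CPM in OHCs. In IHCs 5 of 6 libraries lay below every OHC library. The log2 fold change was 0.49 (95% interval -0.03 to 1.01; adjusted p = 0.261, edgeR). The exons of all annotated Gpsm2 transcripts share 38.1% of their bases with Clcc1 on the opposite strand. Clcc1 counts came to 30.9% of those of Gpsm2. Of the 100-base windows of the main Gpsm2 transcript, 4.76% also occur in Clcc1. The strand setting of the counting is not given in the sources used here, and without strand reads in the shared part belong to neither gene alone.

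Gnai3 (ENSMUSG00000000001, chromosome 3, 108014590 to 108053469, minus strand) was 22.4, 64.6 and 74.0 CPM among IHC libraries and 67.2, 89.8 and 104 CPM in OHCs. In OHCs 5 of 6 libraries lay above every IHC library. The log2 fold change was 0.59 (95% interval 0.02 to 1.17; adjusted p = 0.217, edgeR), and 0.41 without IHC replicate 1, which held the lowest value. The ratio of the partners was close to 1 in both cell types, with Gpsm2 counts 0.684 to 1.70 times those of Gnai3 in IHCs (median 1.09) and 0.673 to 1.67 times in OHCs (median 0.878). Per kilobase of exon Gnai3 was the higher of the pair in all 12 libraries, but with the longest transcript or with unshared exons as the length Gpsm2 was the higher in 1 library of each cell type. The difference of the mean log2 ratios was -0.16 (two-sided exact permutation test, adjusted p = 0.530 over the 4 ratios), and -0.03 without IHC replicate 1.

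Eps8l2 and Baiap2l2, the members of the shorter rows, were both fitted higher in IHCs, and in both the highest value was that of IHC replicate 1. Eps8l2 (ENSMUSG00000025504, chromosome 7, 140918255 to 140944232, plus strand), a paralog of Eps8, was 67.5, 91.0 and 215 CPM in the lowest, median and highest IHC library and 52.5, 67.0 and 104 CPM in OHCs. The groups overlapped, and the log2 fold change of -0.54 (95% interval -1.16 to 0.08; adjusted p = 0.302, edgeR) became -0.23 without IHC replicate 1. Of its exonic bases 27.3% are shared with the opposite-strand transcript B230206H07Rik, whose counts came to 2.03% of those of Eps8l2.

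Eps8l2 counts exceeded those of Eps8 in all 12 libraries, and the ratio of Eps8 to Eps8l2 was 0.0939 to 0.448 in IHCs and 0.147 to 0.789 in OHCs. The difference of the mean log2 ratios was 0.71 (two-sided exact permutation test, adjusted p = 0.245 over the 4 ratios), and 0.43 without IHC replicate 1. Per kilobase of exon Eps8 was also the lower of the pair in all 12 libraries, at most 0.360 of Eps8l2 (0.743 with the longest transcript as the length).

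Baiap2l2 (ENSMUSG00000018126, chromosome 15, 79142383 to 79169737, minus strand), which encodes a membrane-bending protein of the BAR family, was 13.9, 30.2 and 86.4 CPM among IHC libraries and 6.84, 17.1 and 32.3 CPM in OHCs. In OHCs 2 libraries lay below every IHC library, and 3 IHC libraries lay above every OHC library. The log2 fold change was -1.07 (95% interval -2.11 to -0.04; adjusted p = 0.213, edgeR), and -0.60 without IHC replicate 1. Its spread among IHC libraries was the widest of the members, with a coefficient of variation of 75.1%.

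**Figure D3:**
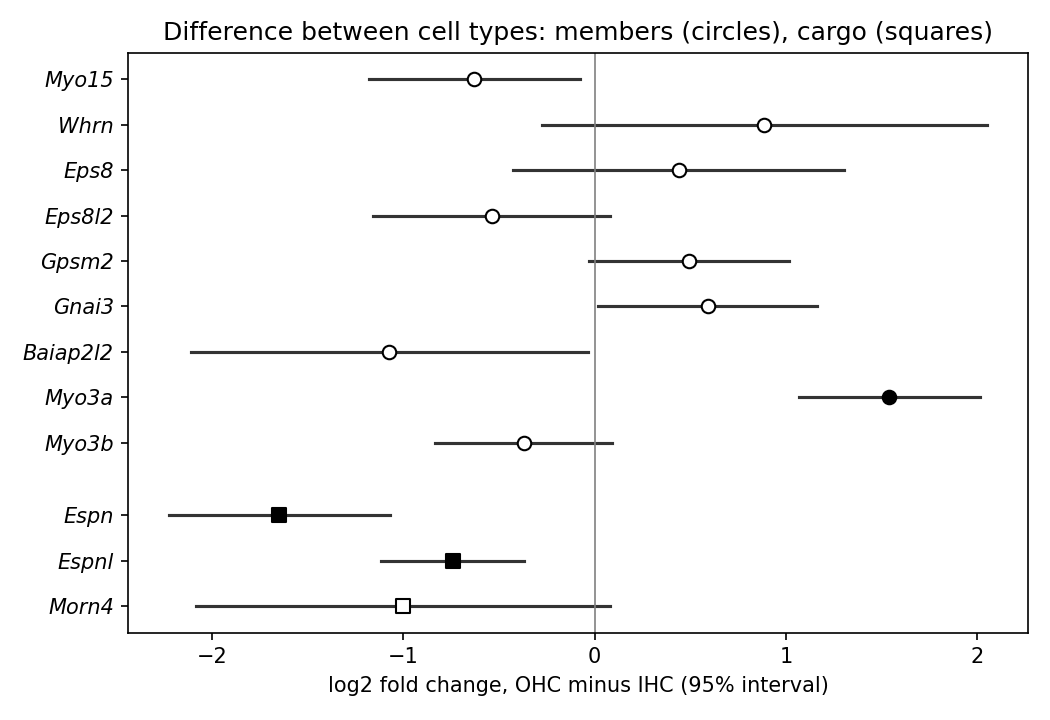
Fitted log2 fold change (OHC minus IHC) with its 95% interval for the 9 members (circles) and 3 genes of class III myosin cargo and adaptors (squares), filled where the adjusted p was under 0.05. Myo3a, at 1.54, is the one filled circle, and Espn and Espnl, at -1.65 and -0.74, are the filled squares on the other side of 0.

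Levels between genes were compared as CPM per kilobase of exon, using the union of annotated exons. In IHCs the order from high to low was Myo3b (22.7 CPM per kb), Gnai3 (17.1), Eps8l2 (15.2), Myo15 (14.7), Myo3a (13.8), Baiap2l2 (12.96), Gpsm2 (9.80), Eps8 (1.65) and Whrn (0.836). Between neighbours, the order held in all 6 IHC libraries only for Myo3b over Gnai3, Gpsm2 over Eps8 and Eps8 over Whrn, so the middle group from Gnai3 to Gpsm2 was not resolved one from the next. In OHCs the order was Myo3a (40.1 CPM per kb), Gnai3 (25.8), Myo3b (17.5), Gpsm2 (13.8), Eps8l2 (10.5), Myo15 (9.52), Baiap2l2 (6.15), Eps8 (2.24) and Whrn (1.55). There it held in all 6 libraries for Myo3a over Gnai3 and Gnai3 over Myo3b and for no pair of neighbours further down.

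Myo3a came first in OHCs under every length and with any 1 library left out, while its place in IHCs, the fifth, lay in the group that was not resolved and ranged from the third to the sixth over these alternatives. In OHCs its level was above that of 97.2% of the genes tested. In both cell types 7 members lay above at least 71.9% of the genes tested, while Eps8 (37.1% in IHCs, 45.4% in OHCs) and Whrn (23.5% and 36.0%) were below the median gene, at 2.81 CPM per kb in IHCs and 2.67 in OHCs. The annotated exons of Whrn add up to 12787 bases over 45 transcripts, of which the longest has 4852, and those of Eps8 to 15466 bases with a longest transcript of 5022, so their levels per length depend on the transcript taken. With the longest transcript as the length, Eps8 and Whrn kept the last 2 places in both cell types.

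**Figure D4:**
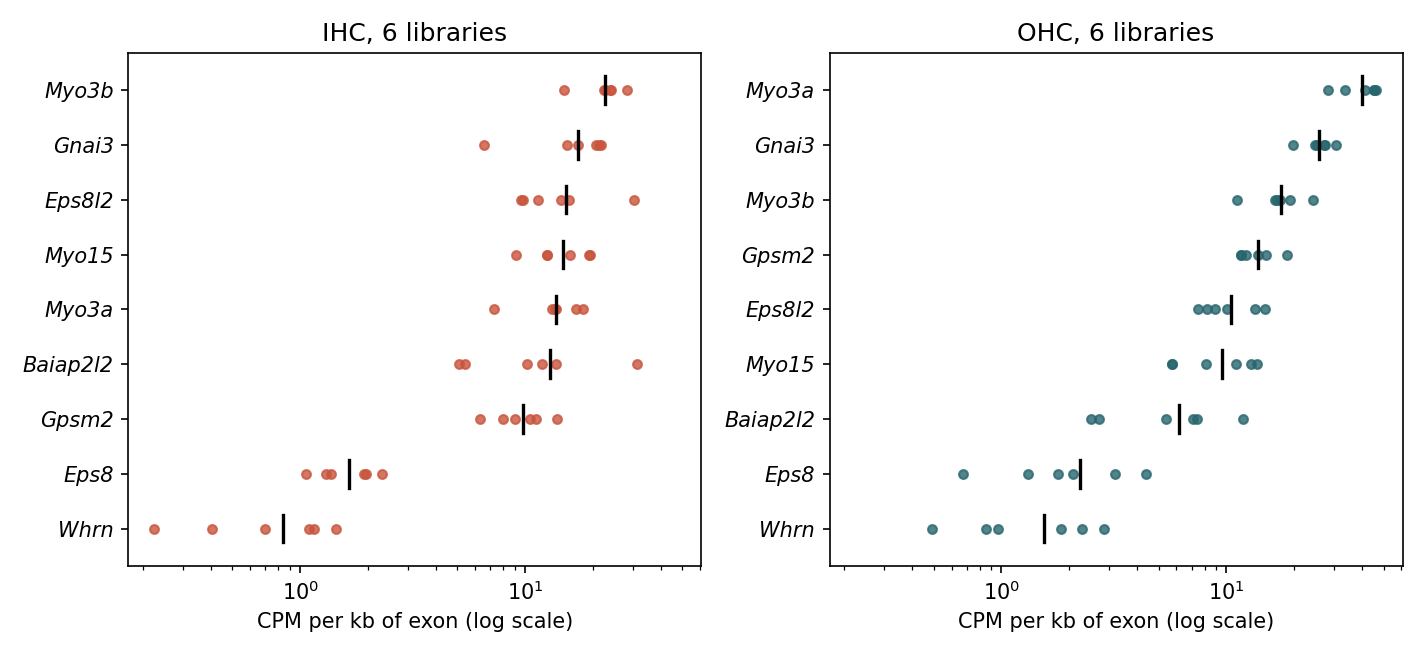
CPM per kilobase of exon (log scale) of the 9 members in IHCs (left) and OHCs (right), sorted by the mean of the 6 libraries (black line), with 1 point per library. Myo3b leads in IHCs at 22.7 and Myo3a in OHCs at 40.1, and Eps8 and Whrn have the lowest means in both, although in OHCs the range of Eps8 overlaps that of Baiap2l2.

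The other genes of the bundle were taken as 7 lists with 56 genes, of which 54 had enough counts to be tested. In all, 2 were higher in OHCs and 5 in IHCs, 12.96% of those tested beside the 6.26% of all genes given above, with a median log2 fold change of -0.04. None of the 10 polarity and G protein partners of Gpsm2 and Gnai3 passed, among them Insc (log2 fold change -0.29), which links GPSM2 to the apical polarity complex, and the related subunit Gnai2 (-0.60). None of the 3 tested genes of the EPS8 and BAIAP2 family passed, and their levels were low, with the highest library of Eps8l1, Baiap2 and Baiap2l1 at 25.1 CPM. Eps8l3 was at most 0.211 CPM in any library. None of the 8 genes of capping and severing proteins, which act at the shorter rows, passed, with log2 fold changes of 0.35 for Twf1, 0.27 for Dstn and -0.41 for Capzb, the 3 with the highest levels. Of the rest, the sizes were largest for Cfl2 (1.296, adjusted p = 0.214, edgeR) and Capza2 (0.95, adjusted p = 0.0657, edgeR), both named here after their values were seen, and Capza2, a subunit of the actin capping protein, passed under 4 of 19 alternatives. A test not passed does not show that these genes had equal levels in the 2 cell types.

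Of the 6 tested genes of the transduction complex at the tips of the shorter rows, Pcdh15 was higher in OHCs and Tmie in IHCs. Pcdh15, the lower part of the tip link, was 217, 272 and 329 CPM in the lowest, median and highest IHC library and 384, 513 and 566 CPM in OHCs without overlap (log2 fold change 0.87, adjusted p = 0.00541, edgeR). Tmie, a membrane subunit of the channel complex, was 120, 168 and 338 CPM among IHC libraries and 50.8, 69.8 and 135 CPM in OHCs (-1.17, adjusted p = 0.0201, edgeR). Its groups overlapped, and the call was lost without OHC replicate 3, 4 or 6 (adjusted p 0.0525, 0.0513 and 0.0518). Cib2 (-0.31), Lhfpl5 (-0.06) and Tmc2 (-0.15) did not pass.

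Of the 9 genes of the Usher and ankle links, which include binding partners of whirlin, Adgrv1 was higher in OHCs. This large ankle-link receptor was 185, 237 and 299 CPM among IHC libraries and 302, 415 and 519 CPM in OHCs, without overlap (log2 fold change 0.78, adjusted p = 0.0172, edgeR). Myo7a (-0.49) and Cdh23 (0.19) did not pass. Of 15 genes of crosslinkers, taper and rootlet, 2 were higher in IHCs. Triobp, which bundles actin in the rootlet, was 859, 1038 and 1994 CPM among IHC libraries and 357, 570 and 647 CPM in OHCs (-1.11, adjusted p = 0.00405, edgeR), and Xirp2, an actin-binding protein of the stereocilia core, was 227, 417 and 527 CPM among IHC libraries and 138, 191 and 246 CPM in OHCs (-1.06, adjusted p = 0.00475, edgeR). Actb (-0.05) and Actg1 (-0.09), the actins themselves, did not pass, nor did the motor Myo6 (0.47, adjusted p = 0.0650, edgeR), which passed under 3 of 19 alternatives.

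For each member, the 3 genes whose profile over the 12 libraries was most like its own were found by the root mean square difference of log2 CPM, each profile centred on its own mean. For Myo3a they were Anxa4, which encodes a phospholipid-binding annexin (0.25), the small GTPase gene Arl4a (0.31) and Pkhd1l1, which encodes a stereocilia coat protein (0.32). All 3 were also higher in OHCs, a direction set by this choice, since the profile of Myo3a holds its difference between the cell types. The nearest to Gnai3 were Erich3 (0.18), Scai and Eeig2, to Myo3b Otud7b (0.20), Rbbp6 and Utp3, and to Gpsm2 Hook3 (0.21), Gpkow and Kpna1. The profiles of Eps8l2 (Myl12b, 0.24, then Hnrnpul1 and Ankrd11) and Myo15 (Vwa5b2, 0.26, then Dcp1a and Ap3s2) had similar distances, and those of Baiap2l2 (H2az2, 0.41, then Gon4l and Mast2), Eps8 (Rsl1d1, 0.43, then Oxsr1 and Dner) and Whrn (Eid2, 0.46, then Trappc9 and Nck1) had fewer close matches. Among the members themselves the closest pair was Gpsm2 and Gnai3 (0.41), yet Gnai3 came only at place 447 in the order of genes nearest to Gpsm2 and Gpsm2 at place 296 for Gnai3, and for no member was another member among the nearest 3. All genes of a library share its depth and rRNA content, so these distances only describe the 12 libraries.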

How the data were processed

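RNA from FACS-sorted IHC and OHC pools was depleted of rRNA, amplified from random hexamers (NuGEN Ovation) and sequenced as paired 100 bp reads. By the methods, the authors trimmed reads with Trimmomatic, aligned them with STAR and deposited raw counts per gene from HTSeq (intersection-nonempty, GRCm39, GENCODE vM27). Versions and the strand setting are not given in the sources used here. Reads carry no molecular identifiers. The 5 summary lines, for reads not assigned to a gene, held 24.2% to 46.1% of all counts per library and were left out.

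Counts were analysed with edgeR 4.0.16 in R 4.3.3 (filterByExpr, minimum count 10 and total 15; TMM; quasi-likelihood test without covariates; Benjamini-Hochberg, threshold 0.05), tested on simulated data. Alternatives used DESeq2 1.42.0, edgeR's exact test, other filters and scalings, a replicate block and leaving out each library. CPM values carry no added count; ratios added 0.5 counts to both genes and profiles a prior of 2. Remaining steps used Python with numpy, pandas and scipy. Names, exon lengths and positions are from GENCODE vM39, which holds 98.8% of the gene identifiers. Named genes were all members, partner genes past the threshold with at most 3 others per list of the highest level, and the 3 nearest profiles; some listed genes are not reported here. Members and lists were chosen with earlier results of these data known.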

Additional observations from a re-analysis of the deposited data

Results flagged for a closer look

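Among the 26 groups of 6 libraries examined (9 members and 4 ratios in each cell type), 2 held a library far from the other 5 by Dixon's test, which chance alone does in about 1 of 20 groups. Both were IHC replicate 1. Eps8l2 was 214.7 CPM there and 67.5 to 110 CPM in the other 5 IHC libraries. Baiap2l2 was 86.4 CPM there and 13.9 to 37.4 CPM in the other 5. This library also had the highest rRNA share (56.9%), and the part of that in the 2 values was not tested.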

How the results depend on the processing

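The test across all genes called 1 member, Myo3a, under all 19 alternatives, 12 of which left out 1 library each. Its log2 fold change lay between 1.40 and 1.63. The other 8 members gave 152 values in all, none of which passed the threshold (lowest adjusted p 0.101) or turned its sign. Of all genes tested, 830 were called, against 1811 with every gene that had a count, 1266 with edgeR's exact test and 2929 with DESeq2; leaving out 1 library gave 599 to 950. The share of calls that were higher in IHCs was 61.0%, but 49.3% with every gene that had a count and 45.7% with DESeq2. Partner genes called were 7, and 6 to 10 under the alternatives; Tmie alone of the 7 lost its call, without OHC replicate 3, 4 or 6. Capza2 gained one under 4 alternatives (edgeR's exact test, DESeq2, the replicate block and without IHC replicate 2), Pdzd7 under 3 (the exact test, DESeq2 and without IHC replicate 4) and Myo6 under 3 (without rRNA genes, DESeq2 and without IHC replicate 1).

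No pairing by replicate number was seen (correlations of same-numbered deviations -0.03 to 0.02), and 1 of 12 libraries was best matched by its own number. This does not show that same-numbered pools came from different mice. With the replicate block, 903 genes, 1 member and 8 partner genes were called, and the log2 fold change of Eps8 moved from 0.44 to 0.25. The difference of the Myo3a to Myo3b log2 ratio stayed at 1.96 with the replicate block. It did not pass there (sign-flip test, adjusted p = 0.125 over the 4 ratios). With 6 sign flips, 1 ratio can pass this adjustment only where other ratios also reach the smallest p, and the other 3 did not. Without 1 library at a time the difference was 1.79 to 2.08. The other 3 ratios passed under no alternative. In the order by level per length, 3 of 8 neighbours in IHCs and 2 of 8 in OHCs were in the same order in every library; under both other lengths the number in IHCs was 2, with Gnai3 in the fourth place instead of the second with the longest transcript. The number in OHCs fell to 1 with the longest annotated transcript as length and to 1 with exon length without bases shared with other genes, an alternative added, like the ratios per length at other lengths, after seeing the data.

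These counts include copies made by amplification, so the spread between libraries and not the number of counts sets the precision. Of the 8 members without a call, only Myo3b had an interval that stayed within a 2-fold change.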
